A study of Mus musculus with 2 samples.

Results

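Genes annotated to potassium ion transport or to delayed rectifier potassium channel activity were described by their open chromatin in the hearts of mice aged 4 days. The rule took every gene whose Gene Ontology (GO) terms in the deposited peak table named potassium ion transmembrane transport, potassium ion transport or delayed rectifier potassium channel activity, and left out 2 pacemaker channel genes, Hcn2 and Hcn4. It found 115 of the 28944 genes in the table, with 441 of its 83549 peaks. The assay, ATAC-seq, reads open chromatin from the places where Tn5 transposase can insert. One library came from hearts of 7 Wtapflox/flox mice, which carry floxed Wtap and served as controls, and the other from hearts of 6 Wtap-CKO mice, in which Wtap was knocked out in cardiomyocytes only. Wtap encodes a subunit of the complex that methylates adenosines in RNA. The Cre line that deleted it and the deleted part of the gene are not named in the sample labels, so no peak could check the genotype. Each genotype was a pool of animals sequenced as 1 library, so no difference below has a replicate check, and no test was run.

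Potassium channels let potassium leave the cell and so end each heartbeat's electrical signal and hold the resting voltage. Voltage-gated channels open on depolarisation and repolarise the cell, inward rectifiers and 2-pore channels set the resting voltage, and ATP-sensitive channels, built from an inward rectifier and a sulfonylurea receptor, couple it to energy supply. Pumps, cotransporters and exchangers move potassium against or along its gradient together with other ions. The group was selected on its low promoter read counts in Wtap-CKO relative to Wtapflox/flox, the same comparison described here, so their promoter ratios and counts are given as a description and support nothing on their own. The same holds for the distal signal, which comes from the same contrast.

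Reads in peaks numbered 9835753 in Wtapflox/flox and 9816384 in Wtap-CKO, so read numbers can be set side by side directly. Where 2 read numbers are joined by "against", the first is Wtap-CKO and the second the Wtapflox/flox control. Ratios are log2 of Wtap-CKO over Wtapflox/flox, in CPM, the counts scaled by each library's reads in all peaks, after adding 0.5 CPM, and a value below 0 means less open chromatin in Wtap-CKO. The RPM in the authors' deposited table scale to other totals and move the median of all peaks from 0.00 to -0.21, and all ratios below are relative to reads in peaks. By those totals, 14.5% of the Wtap-CKO reads and 16.8% of the Wtapflox/flox reads lay in peaks. Scaling to reads in peaks sets this difference between the libraries aside. Intervals are exact 95% Clopper-Pearson intervals and cover counting error only. Promoters of 4 of the 6 cardiomyocyte markers could be tied to an ID, namely Tnnt2, Actn2, Ryr2 and Ttn, and each had a peak, as the tissue label requires. The table gives Ensembl IDs without symbols. Symbols were tied to 112 of the 115 IDs through RefSeq gene positions in GRCm38.p6, 62 by the length of the gene and 50 by its place between neighbours, and 3 IDs stayed without a symbol.

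Of the 115 genes, 83 had a peak within 1000 bp of an annotated transcript start and 92 had one farther away, called distal here. Both kinds were present at 60 genes, a promoter peak only at 23 and a distal peak only at 32. The 125 promoter peaks and 316 distal peaks gave a median of 3 peaks per gene and at most 14. Voltage-gated channel subunits were the most numerous class with 32 genes. There were 21 cotransporters and exchangers, 13 inward rectifiers or their receptors, 12 channels gated by calcium or sodium with their subunits, 11 2-pore channels, 8 pump subunits, 7 auxiliary subunits and 11 other genes. A floor was set at the 25th percentile of the mean of both libraries, 9.67 CPM for promoter sums and 5.10 CPM for distal sums. A sum can therefore pass through 1 library alone. The floor was passed by 46 promoter sums and 76 distal sums, leaving 37 and 16 below it.

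Promoters of the potassium genes held fewer reads in Wtap-CKO, and the pooled ratio was below 0 in every role class, though for pumps it was 0.05 (-0.34 to 0.45) without Atp1b3. Their promoter peaks held 14556 reads in the Wtap-CKO library against 17686 in the control, a pooled ratio of -0.28 (-0.31 to -0.25), against -0.05 for all genes with a promoter peak. The median over the 83 genes was -0.22, against -0.06 over all 16298 genes. The ratio was below 0 at 70 of the 83 genes (84.3%), where 57.4% of all promoters were below 0. The interval lay wholly below 0 at 32 genes (38.6%, background 23.5%) and wholly above 0 at 2 (2.41%, background 13.5%). The differences were small: none of the 46 promoter sums over the floor was past 2-fold in either direction, where 0.196% of all such sums were higher and 0.18% lower. Under the floor, Kcnk6, Slc9a3 and Kcnj12 were past 2-fold lower. The median was similar at every level of signal: from the lowest to the highest quartile of all promoters it was -0.20, -0.22, -0.25 and -0.22 for the potassium genes and -0.04, -0.02, -0.04 and -0.09 for all genes. In whole hearts, fewer cells of a type and less signal per cell cannot be told apart.

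**Figure D1:**
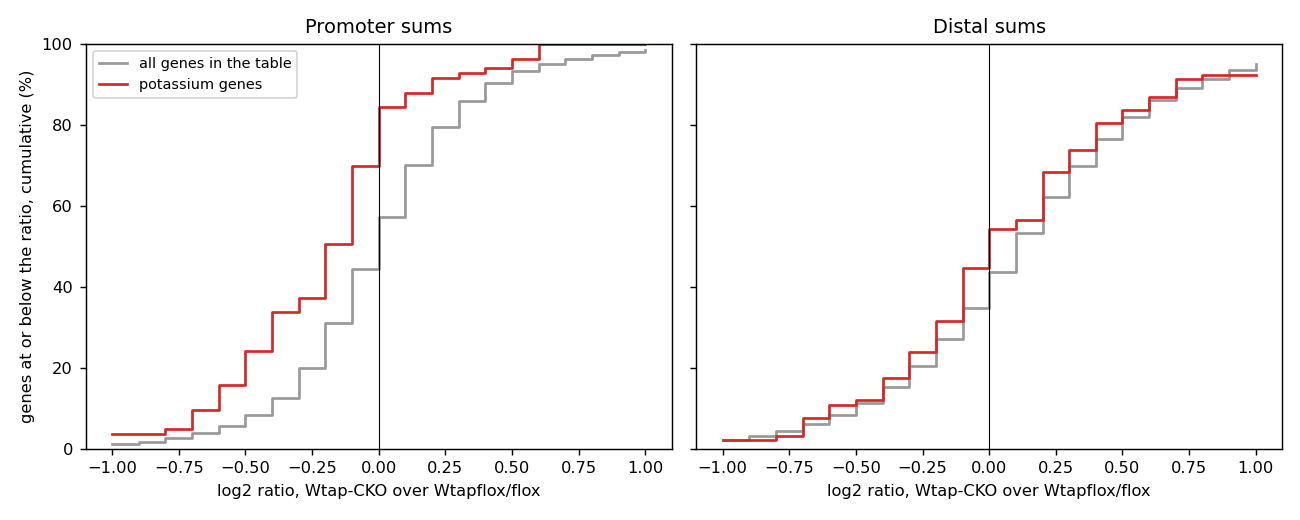
Cumulative share of genes (%) at or below a log2 ratio of the Wtap-CKO to the Wtapflox/flox library, for promoter sums (left) and distal sums (right), potassium genes in red and all genes in grey; the axis ends at ratios of -1 and 1. At promoters 84.3% of the potassium genes lay below 0 against 57.4% of all genes, and at distal sums 54.3% against 43.6%.

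Marker promoters of the heart's cell types also differed between the libraries. The 4 cardiomyocyte markers summed to 227 CPM in Wtap-CKO and 268 CPM in Wtapflox/flox, a pooled ratio of -0.24 (-0.32 to -0.16), and all 4 ratios were below 0, from -0.56 for Ryr2 to -0.12 for Ttn. The 3 of 4 endothelial markers with a tied ID had -0.25 (-0.47 to -0.03), 32.5 against 38.6 CPM, but did not move alike. Cdh5 was at -0.42 (-0.77 to -0.09), Tie1 at -0.16 (-0.50 to 0.18) and Pecam1, under the floor, at 0.03 (-0.56 to 0.62). The 2 of 4 fibroblast markers tied, Tcf21 and Col1a1, had 0.36 (0.12 to 0.60), 33.9 against 26.4 CPM. Col1a1 was at 0.43 (0.15 to 0.74) and Tcf21 at 0.19 (-0.22 to 0.62). Of the leukocyte markers only Cd68 was tied, with 11.7 and 12.2 CPM, and the 3 neuron markers summed to 25.6 and 21.6 CPM. The smooth muscle and pericyte markers that were tied, Kcnj8 and Abcc9, are themselves potassium genes and appear below. None of the tied markers was at 0 in either library. The part of cell composition in the promoter result was not tested.

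**Figure D2:**
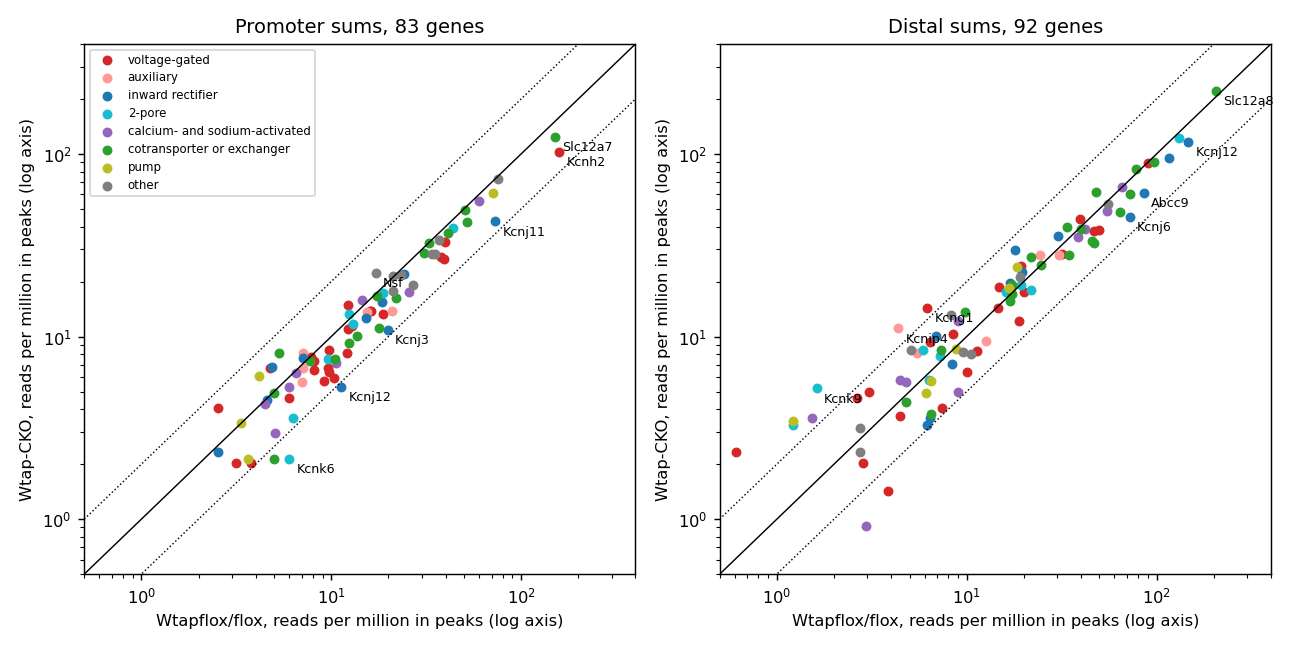
Promoter sums (left, 83 genes) and distal sums (right, 92 genes) of each potassium gene in Wtapflox/flox (x axis) and Wtap-CKO (y axis), in CPM on log axes, coloured by role; the solid line marks equal values and dotted lines 2-fold differences. Most promoter points lie under the line of equal values, with Kcnj11 and Kcnj3 near the lower 2-fold line and Kcnj12 on it.

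Voltage-gated channels, which repolarise the membrane after each action potential, stood low as a class. Their 24 genes with a promoter peak held 3435 reads against 4609 in the control, a pooled ratio of -0.42 (-0.49 to -0.36), with 21 of 24 below 0 (57.4% of all promoters) and 11 intervals below 0 (23.5%). Much of that came from Kcnh2 (ENSMUSG00000038319, chromosome 5, 24524587 to 24556602, GRCm39), the pore subunit of the rapid delayed rectifier current that ends the ventricular action potential in large mammals. Its 3 promoter peaks held 1006 reads against 1559, a ratio of -0.63 (-0.74 to -0.51). All 3 were lower. The peak 45 bp from the start of the longest transcript (24556647 to 24557944) held 595 against 842 reads, and the peak over an internal start (24534252 to 24535185) held 295 against 545. The remaining one (24532116 to 24532418), 599 bp upstream of the start of a shorter transcript, held 116 against 172. Its 7 distal peaks summed to 871 against 883 reads, a ratio of -0.02 (-0.15 to 0.12), but they did not move alike. The one 1168 bp inside the longest transcript held 123 against 186, -0.58 (-0.93 to -0.26), while 3 peaks 14590 to 29924 bp past a start held 40 against 23, 183 against 153 and 71 against 44. Without Kcnh2, the pooled promoter ratio was -0.33 for the class and -0.25 for all potassium genes.

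The transient outward current, which shapes early repolarisation in the mouse heart, is carried by Kcna4, Kcnd2 and Kcnd3 with the auxiliary subunit Kcnip2. Kcna4 had 261 promoter reads against 384, a ratio of -0.55 (-0.79 to -0.32). Its main peak (chromosome 2, 107120635 to 107121146) held 211 against 340 reads, while a second peak within the gene held 50 against 44. Its 9 distal peaks had 433 and 388 reads, a ratio of 0.16 (-0.04 to 0.36) that was -0.06 with the deposited RPM. Kcnip2, which traffics and gates the Kcnd channels, had 136 against 206 promoter reads, -0.58 (-0.92 to -0.28), with both promoter peaks lower (100 against 153 and 36 against 53). Kcnd3 was weak, with 56 against 90 promoter reads under the floor, -0.64 (-1.19 to -0.18), and its 7 distal peaks summed to 372 against 461, -0.30 (-0.51 to -0.11). Kcnd2 had 83 against 96 promoter reads, also under the floor, and an interval of -0.65 to 0.23. All 4 genes were lower at their promoters, and the interval excluded 0 for all but Kcnd2.

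Among the other voltage-gated genes, the members with promoter sums over the floor ranged from -0.63 for Kcnh2 to 0.29 for Kcnb2. Kcnb2, a delayed rectifier subunit, had 147 reads against 120, with an interval of -0.06 to 0.66. Kcnq5, of the family that carries slow, muscarinic-sensitive potassium current, had 266 against 373 reads, -0.48 (-0.72 to -0.25). Kcnc1, a fast delayed rectifier, had 131 against 184, -0.47 (-0.82 to -0.16), and Kcna7 of the Kcna family had 80 against 119, -0.54, with an interval below 0. The Wtap-CKO signal of Kcna7, 8.15 CPM, was under the promoter floor, which it passed through the control. Kcnq3 was low on both sides, with 58 against 102 promoter reads under the floor and 40 against 73 distal reads, ratios of -0.76 and -0.79. Its distal sum passed the floor through the control, with 4.075 CPM in Wtap-CKO. The 15 genes with the delayed rectifier term and a promoter peak had a pooled ratio of -0.37 (-0.47 to -0.28), against -0.05 for all genes. Of the 15, 13 were below 0 (57.4% of all promoters). Distal sums of the 22 voltage-gated genes pooled to -0.06 (-0.12 to 0.01), against 0.05 for all genes, with 7 intervals below 0 (16.6% of all genes) and 7 above (26.5%). Their median was -0.09, against 0.07.

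Promoter sequences are shown for the 3 heart channel genes with the lowest promoter ratios over the floor that have an entry in the RefSeq promoter table (build GRCm38.p6), Kcnj3, Kcnh2 and Kcnip2, and for Nsf, which had the highest ratio of all members over the floor. Each runs 5′ to 3′ from 250 bases before a RefSeq start to 50 bases after it, and capitals mark GC boxes, the motif GGGCGG on either strand, which is the core of the site bound by Sp factors at many promoters without a TATA box. The starts used for Kcnj3 and Kcnh2 lie 24172 and 22093 bases inside the gene's RefSeq span, that of Kcnip2 359 bases inside, and that of Nsf at its end. The Kcnj3 start lies 162176 bases from the gene's last base, the length of the gene in the deposited table, whose single promoter peak covers its start. The Kcnh2 start lies 10003 bases from the last base, the length of the transcript whose start the internal peak of 295 against 545 reads covers.
Kcnj3 (chr2:55435720-55436019, + strand): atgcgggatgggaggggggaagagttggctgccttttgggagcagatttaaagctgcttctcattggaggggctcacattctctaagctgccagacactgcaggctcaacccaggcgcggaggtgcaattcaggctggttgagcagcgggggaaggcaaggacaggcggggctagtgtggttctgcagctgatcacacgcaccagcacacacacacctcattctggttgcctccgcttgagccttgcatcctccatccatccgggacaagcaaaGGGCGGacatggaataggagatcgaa
Kcnh2 (chr5:24329542-24329841, - strand): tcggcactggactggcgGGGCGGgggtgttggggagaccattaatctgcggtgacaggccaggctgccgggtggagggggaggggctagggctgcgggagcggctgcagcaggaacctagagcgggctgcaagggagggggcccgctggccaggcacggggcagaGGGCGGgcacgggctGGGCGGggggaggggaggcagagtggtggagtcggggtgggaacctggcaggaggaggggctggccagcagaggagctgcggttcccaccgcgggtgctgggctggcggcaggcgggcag
Kcnip2 (chr19:45816014-45816313, - strand): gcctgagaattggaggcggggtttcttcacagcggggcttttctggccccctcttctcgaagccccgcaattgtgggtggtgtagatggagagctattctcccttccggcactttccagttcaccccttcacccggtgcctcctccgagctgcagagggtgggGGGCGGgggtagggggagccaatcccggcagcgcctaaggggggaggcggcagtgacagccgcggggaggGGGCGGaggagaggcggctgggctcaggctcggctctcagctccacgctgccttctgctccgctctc
Nsf (chr11:103954007-103954306, - strand): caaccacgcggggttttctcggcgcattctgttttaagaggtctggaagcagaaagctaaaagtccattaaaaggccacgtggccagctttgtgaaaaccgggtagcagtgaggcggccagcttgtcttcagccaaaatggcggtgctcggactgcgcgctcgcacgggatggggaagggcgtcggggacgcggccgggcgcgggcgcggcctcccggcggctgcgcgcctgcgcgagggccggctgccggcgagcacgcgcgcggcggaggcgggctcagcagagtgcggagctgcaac

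The 3 channel promoters held 1, 3 and 2 GC boxes in that order and 10, 19 and 18 CG dinucleotides, while the Nsf promoter held 0 GC boxes and 38 CG dinucleotides. A TATA box (TATAAA, either strand) was in none of the 4, and the E-box CAGCTG, the form bound by muscle basic helix-loop-helix factors, was in Kcnj3 only. Sequences could be matched for 59 of the 83 genes with a promoter peak. A GC box was in 32 of them (54.2%) and in 46.3% of the 17492 promoters of protein-coding genes in the table. A TATA box was in 2 (3.39%) against 13.3%, and the E-box in 9 (15.3%) against 15.1%. The 17492 were not limited to promoters with a peak in these hearts. These shares therefore do not set potassium genes apart from other open promoters. Each gene gave 1 RefSeq start, which was set against the peaks only for the 4 printed genes. Across the 34 promoters over the floor, the ratio and the number of CG dinucleotides had a Pearson r of 0.28 and a Spearman rho of 0.21, across genes of the same pair of libraries. The 17 promoters with fewer than the median of 17.5 CG dinucleotides had a median ratio of -0.26 and the other 17 had -0.20.

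Inward rectifiers had the lowest pooled promoter ratio of the classes, which rested on Kcnj11, and a low pooled ratio at distal peaks. Their 10 promoter sums held 1281 reads against 1786, -0.48 (-0.58 to -0.37), with a median of -0.20. Of the 10 intervals 3 lay below 0, near the share of all promoters (23.5%). Without Kcnj11 the pooled ratio was -0.31 (-0.44 to -0.17), above the -0.42 of the voltage-gated class. Their 12 distal sums held 4411 against 5252, -0.25 (-0.31 to -0.19). Kcnj11 (ENSMUSG00000096146, chromosome 7, 45743377 to 45750188) encodes the pore of the ATP-sensitive channel of the heart muscle cell. It had 420 promoter reads against 720, a ratio of -0.77 (-0.95 to -0.60), and both promoter peaks were lower, with 267 against 495 and 153 against 225 reads. Its 1 distal peak, 1918 bp from a start, held 221 against 193, -0.09 to 0.48 by its interval. Kcnj3 (chromosome 2, 55325982 to 55488157), a subunit of the acetylcholine-gated channel that slows the atria, had a single promoter peak of 107 against 195 reads, -0.83 (-1.22 to -0.52), the lowest ratio of any member over the floor. Its partner subunit Kcnj5 had 124 against 150 promoter reads, an interval of -0.63 to 0.08, and 935 against 1145 distal reads, -0.29 (-0.42 to -0.16). At Kcnj5 the lower reads lay in intron peaks, with 81 against 156 in intron 2 and 82 against 139 in intron 3, while the largest peak, 29623 bp downstream of the start, held 513 against 562.

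Kcnj12, a subunit of the background inward rectifier current of the ventricle, was low at its promoter and at most of its distal peaks. Its promoter peak, 132 bp from the start (chromosome 11, 60912972 to 60913258), held 52 against 111 reads, -1.02 (-1.60 to -0.60), just under the floor. Its 11 distal peaks summed to 1144 against 1443, -0.33 (-0.45 to -0.22), and 9 of them were below 0. The exceptions were a peak 25965 bp from a start with 57 against 19 reads, a ratio of 1.37, and an intron peak with 205 against 202. Kcnj6, another subunit of acetylcholine-gated channels, had no promoter peak and 443 against 709 distal reads, -0.67 (-0.85 to -0.50). More than any other, 1 intron peak of 915 bp carried this, with 246 against 487 reads (chromosome 16, 94627849 to 94628763, intron 3). Abcc9, the sulfonylurea receptor that joins Kcnj11 or Kcnj8 in ATP-sensitive channels, showed the opposite arrangement to Kcnj11. Its promoter held 217 against 239 reads, an interval of -0.41 to 0.13, and its 8 distal peaks 602 against 845, -0.48 (-0.64 to -0.33), with 179 against 311 in a peak of intron 14. Kcnj8, the pore of the ATP-sensitive channel of vascular muscle and pericytes, had 152 against 183 promoter reads, -0.58 to 0.05 by its interval, and more distal reads in Wtap-CKO, 99 against 68. Kcnj1, best known as a kidney channel, had 292 against 177 distal reads, 0.71, with an interval above 0 and the highest distal ratio of the class.

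**Figure D3:**
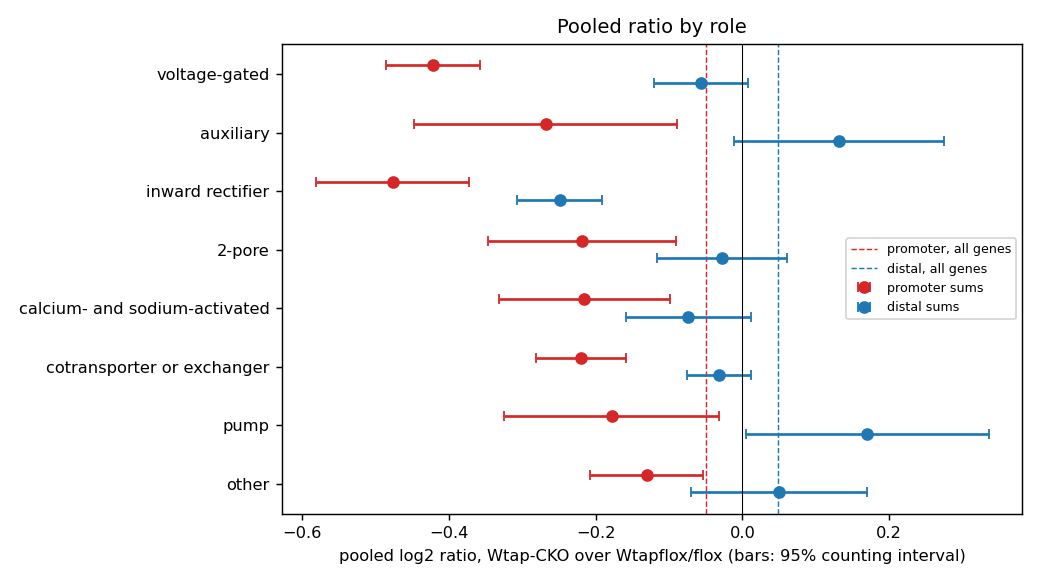
Pooled log2 ratio of the Wtap-CKO to the Wtapflox/flox library (x axis) by role class (y axis), promoter sums in red and distal sums in blue, with 95% counting intervals as bars and the pooled value of all genes as dashed lines. All 8 promoter values lie below 0, lowest for inward rectifiers (-0.48, or -0.31 without Kcnj11) and voltage-gated channels (-0.42), and among distal values inward rectifiers (-0.25) lie lowest.

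Auxiliary subunits and 2-pore channels showed less. The 5 auxiliary promoter sums pooled to -0.27 (-0.45 to -0.09), or -0.11 (-0.33 to 0.11) without Kcnip2, with Kcnip2 the lowest and Kcnab3, a beta subunit of Kcna channels, highest of those over the floor, at 133 against 152 reads. Kcnip4 had the largest distal rise over the floor among all members, with 109 against 43 reads and a ratio of 1.25 (0.82 to 1.89). Its control signal of 4.37 CPM was under the distal floor. Its 3 distal peaks were all higher in Wtap-CKO, each under the floor for single peaks and called only in Wtap-CKO. Kcnip3, a calcium sensor of the same family, had 93 against 125 distal reads, -0.41 (-0.83 to -0.02). The 7 2-pore promoter sums pooled to -0.22 (-0.35 to -0.09). Kcnk3, a background channel expressed in heart muscle, had 384 against 433 promoter reads and an interval of -0.37 to 0.03. Within it, the peak over the start held 67 against 113 reads and a neighbour 191 bp away held 72 against 58. Kcnk6 had 21 against 59 reads in a single narrow promoter peak, -1.30 (-2.28 to -0.75) and under the floor. Kcnk5 had an interval of -0.53 to 0.22 at its promoter and 177 against 215 distal reads. Kcnk7 had 131 against 122 promoter reads, a ratio of 0.10 that was -0.11 with the deposited RPM. Kcnk18 had the highest distal ratio of the class over the floor, with 83 against 58 reads, 0.49 (0.02 to 1.03).

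Calcium- and sodium-activated channels pooled to -0.22 (-0.33 to -0.10) over 8 promoter sums. Lrrc52, an auxiliary subunit of large-conductance channels known from testis, was lowest over the floor with 172 against 251 reads, -0.53 (-0.83 to -0.26). Kcnn2, a small-conductance channel of atrial muscle, had 539 against 589 reads, an interval of -0.30 to 0.05, and Kcnn3 of the same family had 155 against 143, a ratio of 0.12 that was -0.10 with the deposited RPM. Kcnma1, the large-conductance channel pore, had distal peaks only, with 477 against 538 reads, -0.17 (-0.35 to 0.01). Kcnmb2, a beta subunit of that channel, had 49 against 89 distal reads, -0.80 (-1.39 to -0.34), the lowest distal ratio over the floor. Its Wtap-CKO signal, 4.99 CPM, was under the distal floor. Kcnn4, a channel of blood cells and epithelia, had 119 against 88, 0.42 (0.03 to 0.85). The class as a whole pooled to -0.07 (-0.16 to 0.01) at distal peaks.

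Cotransporters and exchangers had ratios below 0 at 15 of 16 promoters (57.4% of all promoters) and pooled to -0.22 (-0.28 to -0.16). The ratios ran from -1.05 for Slc9a3, with 21 against 49 reads under the floor, to 0.58 (0.10 to 1.16) for Slc9a9, an endosomal exchanger and the exception, with 80 against 52 reads, also under the floor. Slc12a7, a potassium-chloride cotransporter, had the most promoter reads of all members, 1216 against 1479, -0.28 (-0.39 to -0.17). Its strongest promoter peak held 731 against 821 reads, the next 324 against 446, and a narrow one over the start of the longest transcript 30 against 80. Slc9a7, a sodium and potassium for proton exchanger of the Golgi, had 110 against 175, -0.64 (-1.02 to -0.31), and Slc12a2, the sodium-potassium-chloride cotransporter, had 282 against 304 with an interval of -0.34 to 0.13. Slc24a3, a calcium exchanger that also moves sodium and potassium, had the highest promoter ratio of the class over the floor, -0.01, from 319 against 321 reads. At distal peaks the class pooled to -0.03 (-0.08 to 0.01), with Slc9a4 lowest, 37 against 64, and Slc12a5 highest, 134 against 96. Slc9a4 passed the distal floor through the control, with 3.77 CPM in Wtap-CKO. Slc12a8 had more distal reads than any other member, 2172 against 2019, 0.11 (0.02 to 0.20).

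The pumps were little represented in open promoters. Of the 4 promoter sums only that of Atp1b3, a beta subunit of the sodium-potassium pump, was over the floor, with 603 against 703 reads, -0.22 (-0.38 to -0.06). Its distal peaks ran the other way, 235 against 182, 0.36 (0.09 to 0.66). Atp1a4, the sperm form of the pump's catalytic subunit, had the lowest distal ratio of the class over the floor, from 48 against 60 reads. Its Wtap-CKO signal, 4.89 CPM, was under the distal floor. The class pooled to 0.17 (0.01 to 0.34) at distal peaks, which was -0.05 with the deposited RPM and 0.06 (-0.14 to 0.27) without Atp1b3. Among the remaining genes, Tmem38a, a cation channel of the sarcoplasmic reticulum, was lowest with 189 against 265 promoter reads, -0.47 (-0.76 to -0.21), and its relative Tmem38b had 175 against 207 with an interval of -0.54 to 0.06. Abcb8, a mitochondrial transporter that pairs with a potassium channel, had 712 against 739, -0.05 (-0.20 to 0.10). Tmem175, a lysosomal potassium channel, had 330 against 364 promoter reads and 83 against 50 distal reads, the latter 0.68 (0.21 to 1.27). Its distal control signal, 5.08 CPM, was under the distal floor. Nsf, an ATPase that takes apart membrane fusion complexes, had the highest promoter ratio over the floor, 220 against 169 reads, 0.37 (0.09 to 0.68).

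A list of 24 genes with known roles in heart potassium currents held 16 members, and 15 of these had a promoter peak. All 15 promoter ratios were below 0 (57.4% of all promoters), but only 8 intervals lay below 0 (23.5% of all). The promoter sums of Kcnj12, Kcnk6, Kcnd2 and Kcnd3 were under the floor. At distal peaks 4 of 15 intervals lay below 0 (16.6% of all) and 1 above (26.5% of all). The list was made with earlier results of these data known, and the other 8 listed genes were not among the members.

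**Figure D4:**
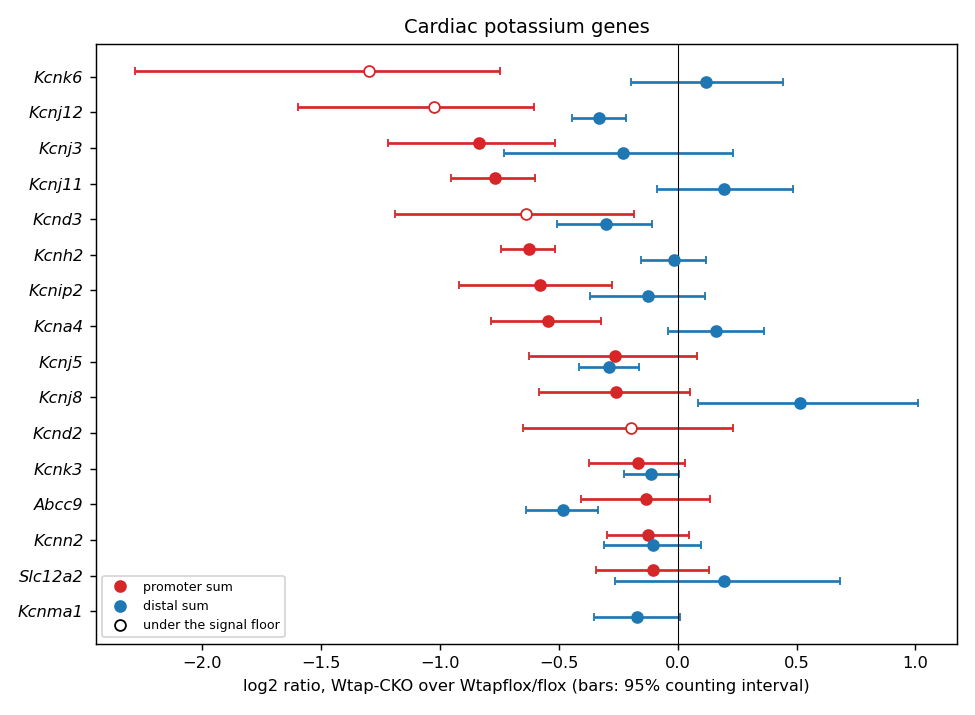
Log2 ratio of the Wtap-CKO to the Wtapflox/flox library (x axis) for promoter sums (red) and distal sums (blue) of the 16 heart potassium genes among the members (y axis), with 95% counting intervals as bars and open points for sums under the floor. All 15 promoter points lie below 0, and the distal points lie on both sides, from -0.48 for Abcc9 to 0.51 for Kcnj8.

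Distal peaks as a whole differed less than promoters. Their reads numbered 23696 in Wtap-CKO against 24893 in the control, a pooled ratio of -0.07 (-0.09 to -0.04) against 0.05 for all genes, and the median over 92 genes was -0.02 against 0.07. Ratios were below 0 at 50 genes (54.3%, background 43.6%), with 22 intervals below 0 (23.9%, background 16.6%) and 25 above (27.2%, background 26.5%). The shares above 0 were thus close to the background. Over the floor, 2 of 76 distal sums were at least 2-fold higher (2.63%, background 2.19%), Kcnip4 and Kcng1, and none was 2-fold lower (background 0.569%). Kcnip4 passed the floor only through Wtap-CKO, with 11.1 CPM there and 4.37 CPM in the control. Kcng1, a silent modifier subunit of voltage-gated channels, had 141 against 61 reads, 1.15 (0.77 to 1.67). The lower ratios lay among strong distal sums: in the highest signal quartile 22 of 29 genes were below 0 with a median of -0.13, where all genes had 45.2% below 0 and a median of 0.03. In the second and the third quartile the potassium genes had medians of 0.11 and 0.14, against 0.12 and 0.08.

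Promoter and distal ratios of the same gene were little related. At the 60 genes with both, the distal ratio was above the promoter ratio at 43 (71.7%), with a median gap of 0.27, where 62% of 9376 genes had a higher distal ratio and the median gap was 0.15. Over the 33 genes with both sums over the floor, Pearson's r was 0.05 and Spearman's rho 0.12, with both ratios drawn from the same pair of libraries. Both ratios were below 0 at 18 of the 33, only the promoter ratio at 13, only the distal ratio at 2, and neither at 0. Of all sums over the floor, 59% of promoter and 42.1% of distal sums were below 0. The same split was not counted for all genes, so this one has no background. Among these 33, Kcnj11, Kcna4, Kcnj8, Lrrc52 and Tmem175 had the largest gaps, and Abcb8, Abcc9, Kcnk7 and Kcnn3 were among those with the lowest. The distal sums of Lrrc52 and Tmem175 were under the floor in the control (4.47 and 5.08 CPM) and passed it through Wtap-CKO, so their gaps owe part of their size to the filter.

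By distance, the lowest median was near starts, but peaks 10000 to 100000 bp away and intron peaks stood about as far below all peaks of their kind. Single peaks within 1000 bp had a median of -0.24, against -0.06 for all such peaks. The median was -0.04 from there to 3000 bp, 0.02 on to 10000 bp, -0.13 on to 100000 bp and 0.27 in the 15 peaks over 100000 bp, where all peaks had 0.05, 0.05, 0.05 and 0.04. The 158 intron peaks had a median of -0.20 against 0.04 for all introns, and the 108 distal intergenic peaks 0.10 against 0.06. At the edge of the window, the peaks just inside were those of Kcnj4 at -809 bp (44 against 45 reads), Kcnn2 at -894 bp (52 against 98) and Kcnj5 at 945 bp (41 against 55). Just outside were Kcnh3 at -1008 bp (15 against 49) and Fxyd2 at 1028 bp (95 against 95).

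**Figure D5:**
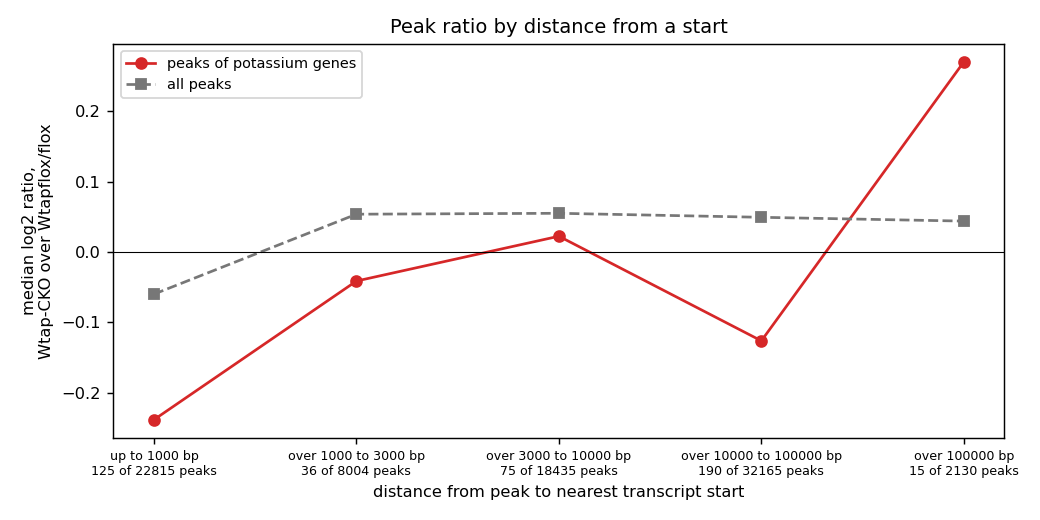
Median log2 ratio of the Wtap-CKO to the Wtapflox/flox library (y axis) of single peaks by distance from the nearest transcript start (x axis, bp), for peaks of potassium genes in red and all peaks in grey, with the number of peaks under each class. The potassium genes' median is -0.24 within 1000 bp, against -0.06 for all peaks, and lies above that of all peaks only in the 15 peaks over 100000 bp away.

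Among single peaks, 265 of 441 were below 0 (60.1%, background 48.9%), 118 intervals lay below 0 (26.8%, background 18%) and 65 above (14.7%, background 21.2%). The peak floor was 3.92 CPM, again on the mean of both libraries. Of the 321 over it, 4 were at least 2-fold higher (1.25%, background 3.5%) and 8 at least 2-fold lower (2.49%, background 1.45%). With the deposited RPM these counts were 1 and 32. Among peaks over the floor, the largest rise was at a peak 2185 bp upstream of Kcng1 (chromosome 2, 168125841 to 168126251), with 103 reads against 26, a ratio of 1.81 (1.36 to 2.67), and it was called only in Wtap-CKO. A pair of neighbouring peaks about 148085 and 147199 bp upstream of Slc24a5 held 59 against 25 and 189 against 88 reads. A peak 15568 bp upstream of Kcnj15, in an intron of another gene, held 186 against 89. Nearby, a peak 12245 bp upstream of Kcnj15 went the other way, with 112 against 182 reads, -0.67 (-1.05 to -0.35). In Kcnj8, a peak in intron 2 held 63 against 30. The peaks of Kcng1 and Kcnj8 and the weaker peak of Slc24a5 were under the floor in the control and passed it through Wtap-CKO. The largest falls over the floor were in intron 1 of Kcnn3 (21 against 63 reads, -1.39), at the promoters of Kcnk6 (21 against 59) and Slc12a7 (30 against 80), and in intron 2 of Slc24a3 (23 against 58) and of Tmem38b (23 against 56). All 5 of these were under the floor in Wtap-CKO, passed it through the control and were called only in Wtapflox/flox.

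The authors' marks of where a peak was called come from the same libraries and also leaned to the control. Of the 125 promoter peaks, both libraries had a call at 83, while 36 (28.8%) were called only in the control and 6 (4.8%) only in Wtap-CKO, where 13.4% and 8.97% of all promoter peaks were called in only 1 library. Peaks called only in Wtapflox/flox still held a median of 33.5 reads in Wtap-CKO, against 53.5. The potassium genes' promoter peaks were narrower and weaker than most, with a median width of 388 bp against 504 bp and median reads of 70 and 83 against 138 and 142. By quartiles of width, from narrow to wide, their median ratios were -0.27, -0.15, -0.40 and -0.15, from 49, 38, 24 and 14 peaks, and those of all promoter peaks -0.03, -0.08, -0.06 and -0.06.

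Other ion transport genes were read the same way. Leaving out the members, promoters of 56 sodium transport genes had a median of -0.17, those of 45 calcium channel and calcium transport genes -0.10, and those of 9 genes of cardiac repolarisation and action potential -0.23. Together these 102 genes had a median of -0.16, with 69 below 0 (67.6%) and 32 intervals below 0 (31.4%), between the potassium genes and all genes. Their pooled promoter ratio was -0.10, from 26585 against 28522 reads. At distal peaks the medians were 0.15, 0.14 and -0.13. Whether the potassium genes differed from these lists was not tested.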

How the data were processed

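ATAC-seq libraries of pooled hearts, 7 Wtapflox/flox and 6 Wtap-CKO mice, were grouped by labelled genotype, per the labels' protocols. MACS2 2.1.0 (a peak caller), BWA 0.7.12 (an aligner), HOMER 4.11, ChIPseeker, fastp 0.20.0 and the build GRCm39 are listed in the submitters' processing notes, without roles. Tn5 read shifting and duplicate removal are not stated there, and duplicates left in would narrow the intervals falsely. The authors deposited whole read counts per merged peak. The deposited RPM is the count plus 1 read times 1 constant per library (0.01475 for Wtap-CKO, 0.0171 for Wtapflox/flox). The deposited log2 fold change is the log2 ratio of RPM. Whether a peak was called is a deposited plus or minus mark per library.

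From the counts, sums per gene within and beyond 1000 bp of a start were scaled by reads in peaks (Python 3.11.15, numpy 2.4.6, scipy 1.17.1). Ratios used 0.5 CPM, and pooled ratios none. Intervals were checked on simulated counts that held counting error only. That check cannot cover duplicates or spread between libraries. Differences of at least 2-fold over the 25th percentile of signal were counted over the whole table. Each comparison rests on 1 library per genotype. Members and lists were chosen with earlier results of these data known. The text names the members extreme in each class over the floor, those past 2-fold, the largest gaps, the most promoter reads, heart genes and extreme peaks; Kcnq5, Kcnc1, Kcna7, Slc9a3, Slc9a9 and Slc12a8 were added after their values were seen. GO terms of 1784 genes were left out of the table used here, so these genes could not be members. RefSeq sequences are of GRCm38.p6, and no position was converted between builds. Alternatives were the deposited RPM, centring, pseudocounts, floors, a 1.5-fold rule, a 3000 bp window and channel genes only. Values of some single genes chosen by these rules are not reported here.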

Additional observations from a re-analysis of the deposited data

How the results depend on the processing

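The promoter and distal medians kept their sign under every alternative run for them, and so did the median gap, which was recomputed for pseudocounts, the window and the choice of genes but not for the scalings. With the deposited RPM the pooled promoter ratio was -0.49 and the pooled distal ratio -0.28, beside -0.27 and -0.17 for all genes; promoter sums past 2-fold were 0 higher and 1 lower, distal sums 1 higher and 2 lower, and peaks 1 higher and 32 lower. Of 81 sums of named genes, 24 moved past their counting interval with the RPM and 9 changed sign, all from above to below 0: the promoter sums of Kcnj15, Kcnk7 and Kcnn3 and the distal sums of Kcna4, Kcnj11, Kcnj15, Kcnk6, Nsf and Slc12a2. Centring and other pseudocounts moved none of the 81. With 2 CPM added, 1 distal sum and 1 peak were past 2-fold higher and 2 peaks lower. With no floor, 3 promoter sums were lower, 7 distal sums higher and 2 lower, and 22 peaks higher and 21 lower. With the floor at the median, 0 distal sums were higher, and 2 peaks higher and 1 lower. At 1.5-fold, 4 promoter sums were lower, 5 distal sums higher and 6 lower, and 22 peaks higher and 56 lower. A 3000 bp window gave a pooled promoter ratio of -0.24, with 1 promoter and 1 distal sum higher. Only the 82 genes with a potassium channel activity term gave -0.34 and -0.10.

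Alternatives chosen after seeing the data were leaving out Kcnh2 (pooled promoter ratio -0.25), leaving out Slc12a8 (pooled distal ratio -0.08), leaving out the gene that moves a role class most (values stand beside the voltage-gated, inward rectifier, auxiliary and pump classes) and keeping only genes tied to a symbol by length (-0.27 and -0.06). No paired analysis was possible because each genotype has 1 library, and none could be left out. The depth leaves 2-fold differences of sums under the floor with wide intervals, such as -2.28 to -0.75 for the promoter of Kcnk6.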
